A study of Homo sapiens with 4 samples.

Results

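Collagen, laminin and integrin genes, together with fibronectin (FN1) and SPARC, were followed in NCI-H460, an established human large cell lung cancer line. Members were taken by symbol alone: every collagen chain, every laminin chain and every integrin subunit whose symbol ends in a number, V or E, plus FN1 and SPARC. This gave 79 of the 26364 gene symbols in the count tables, namely 44 collagens, 12 laminins, 21 integrins and the other two. Subunits named by other letters, such as ITGA2B or ITGAM, were not members.

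Each of the 4 groups was 1 library of 1 cell line. Cells had either no irradiation or a gamma dose of 4 Gy. They then spent 48 h either in DMSO, the solvent, or in 2 uM DZNep (3-deazaneplanocin A), a drug that blocks S-adenosylhomocysteine hydrolase and so hinders methylation reactions. Libraries are named by drug and dose. Where 4 values follow each other, they belong to DMSO 0 Gy and DMSO 4 Gy first, then to DZNep 0 Gy, and last to DZNep 4 Gy.

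The extracellular matrix is a mesh of secreted proteins. Collagens form its fibrils and, with laminins, the sheets called basement membranes. A laminin is a trimer of an alpha, a beta and a gamma chain. Fibronectin is a secreted dimer that cells assemble into fibrils, and SPARC is a secreted calcium-binding protein that binds collagen. Integrins are receptors made of an alpha and a beta subunit, and they connect these proteins to the actin cytoskeleton at focal adhesions. Epithelial cells chiefly meet the laminin and type IV collagen of the basement membrane, whereas fibrillar collagens are mostly products of connective tissue cells.

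Promoter sequence is shown for 4 loci on which the results turn: FN1, the most abundant member; COL15A1 and COL5A1, the members with the largest rise and the largest fall under DZNep among those reaching 10 CPM; and the short stretch between the start sites of COL4A1 and COL4A2, which are transcribed away from each other. CPM are counts scaled to the size of the library. The sequences are RefSeq's for GRCh38.p14, and 58 of the 79 symbols were matched in that table. Each is written 5′ to 3′ and stops before the transcribed part. Capitals mark matches on either strand. The letters searched were TGACGTCA, known as the cAMP response element, and TGACTCA, bound by AP-1 factors, besides the common promoter boxes CCAAT, known for binding NF-Y, GGGCGG, known for binding SP1, and TATAA, known from the TATA box.
FN1, chr2:215436069-215436318, minus strand: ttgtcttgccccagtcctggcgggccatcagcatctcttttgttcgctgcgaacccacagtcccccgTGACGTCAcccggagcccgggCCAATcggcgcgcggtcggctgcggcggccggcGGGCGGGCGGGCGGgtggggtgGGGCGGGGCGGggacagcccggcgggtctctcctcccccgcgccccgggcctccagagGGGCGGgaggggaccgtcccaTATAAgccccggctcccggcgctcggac
COL15A1, chr9:98943657-98943906, plus strand: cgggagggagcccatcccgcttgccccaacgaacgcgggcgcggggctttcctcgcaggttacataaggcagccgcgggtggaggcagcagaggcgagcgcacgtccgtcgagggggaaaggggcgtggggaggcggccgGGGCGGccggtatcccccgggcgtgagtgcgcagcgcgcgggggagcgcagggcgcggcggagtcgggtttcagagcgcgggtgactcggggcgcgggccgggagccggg
COL5A1, chr9:134641553-134641802, plus strand: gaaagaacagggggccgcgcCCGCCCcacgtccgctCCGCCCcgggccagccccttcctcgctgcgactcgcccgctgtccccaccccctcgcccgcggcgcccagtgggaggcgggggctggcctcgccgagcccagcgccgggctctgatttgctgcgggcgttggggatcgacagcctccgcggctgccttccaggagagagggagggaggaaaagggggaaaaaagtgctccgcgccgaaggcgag
COL4A1 to COL4A2, chr13:110307158-110307283, in the direction of COL4A2: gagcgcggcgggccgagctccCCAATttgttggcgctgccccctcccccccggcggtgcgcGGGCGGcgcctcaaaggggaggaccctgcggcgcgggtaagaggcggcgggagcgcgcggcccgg

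The FN1 window held 1 match to TGACGTCA, 1 to CCAAT, 6 to GGGCGG, of which some overlap, and 1 to TATAA. In 35116 human promoter windows of 250 bases, TGACGTCA stood in 1.65%, TGACTCA in 4.2%, CCAAT in 32%, GGGCGG in 42.6% and TATAA in 18.9%. FN1 was the only one of the 34 tested members with a window whose sequence held TGACGTCA. COL15A1 had 1 GGGCGG match and COL5A1 had 2, and neither window held any of the other letters searched. The 126 bases between COL4A1 and COL4A2 held 1 CCAAT and 1 GGGCGG. The starts of COL4A4 and COL4A3, and those of COL4A6 and COL4A5, were also head to head, with 418 and 379 bases between them. A match is a description of the letters and says nothing of binding in these cells.

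Depth was 112461380 to 136594350 counts per library, and a count of 0 allows up to 0.0217 to 0.0267 CPM. Such limits, and all intervals below, cover counting error only, and even counts were in excess (55.9% to 58.1% of the counts from 1 to 59), so intervals are somewhat too narrow. With 1 library per group, differences between a pair of libraries are given as log2 ratios with no test. Effects of DZNep and of radiation were tested over all 4 libraries at once with edgeR's quasi-likelihood test, each adjusted for the other. Since no label says that the 4 libraries came from separate cultures, the p-values speak only for the spread among them, which may be technical. That spread is the departure of the 4 libraries from additive effects of drug and dose, combined with an estimate over all genes. An unequal effect of one treatment in the arms of the other therefore counts as spread. Of the epithelial markers, KRT8 stood at 709 to 2048 CPM and KRT18 at 633 to 2070 CPM, whereas EPCAM and CDH1 stayed at or under 0.491 and 0.343 CPM. The 6 endothelial markers summed to 0.246 to 0.943 CPM with TEK and TIE1 at 0, the 7 fibroblast markers to 7.54 to 13.6 CPM with FAP at 0, and among 6 blood markers HBB had 0 counts and PTPRC at most 0.0578 CPM. The 5 smooth muscle markers, of which CNN1 had 0 counts, summed to 25.7, 111, 12.0 and 19.2 CPM, mostly ACTA2.

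Of the 79 members, 47 reached 1 CPM in at least 2 libraries and were tested, 31 had counts below that, and COL6A5 had 0 counts in every library. The 31 were 23 collagens, 2 laminins and 6 integrins, and 19 of them had 0 counts in some library. Beside COL1A2, COL13A1 and ITGB6, described below, they were COL5A3, COL6A3, COL6A6, COL8A2, COL9A1, COL9A2, COL9A3, COL10A1, COL11A1, COL11A2, COL14A1, COL16A1, COL17A1, COL19A1, COL20A1, COL21A1, COL22A1, COL23A1, COL24A1, COL25A1, COL28A1, LAMA4, LAMB4, ITGA4, ITGA8, ITGA9, ITGB3 and ITGB7, and the highest value of any of the 31 was 1.77 CPM, that of COL13A1 in DZNep 4 Gy. COL1A2, the partner chain of COL1A1 in type I collagen, was among them, with 0, 9, 5 and 1 counts. SPARC, ITGA10 and ITGB2 passed the filter through the DZNep libraries alone, so a difference was built into their selection, and counts of calls are also given without them.

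FN1 outweighed all the other members together. It took 1.01% of all counts in DMSO 0 Gy, 1.79% in DMSO 4 Gy, 1.93% in DZNep 0 Gy and 2.19% in DZNep 4 Gy, and ranked 6, 2, 1 and 1 among all genes. Of the counts that fell on members, FN1 held 81.0% to 88.4%. Per kb of exon, averaged over libraries, FN1 stood at 1906 CPM. The next members were ITGB1, the beta subunit shared by most matrix-binding integrins, at 95.8, COL4A6 at 55.8, LAMC1 at 54.9, COL5A2 at 38.0 and COL8A1 at 31.1 CPM per kb. The most abundant partners of LAMC1 per kb were LAMB1 at 18.0, LAMA1 at 15.6 and LAMA5 at 13.4, and the most abundant integrin alpha subunits were ITGA6 at 17.4, ITGA5 at 16.2, ITGA3 at 13.7 and ITGAV at 10.1 CPM per kb. COL4A6 and COL4A5, the latter at 7.78 CPM per kb, both stood above COL4A2 at 1.52 and COL4A1 at 0.373, the chains that make up most basement membranes of the body.

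**Figure D1:**
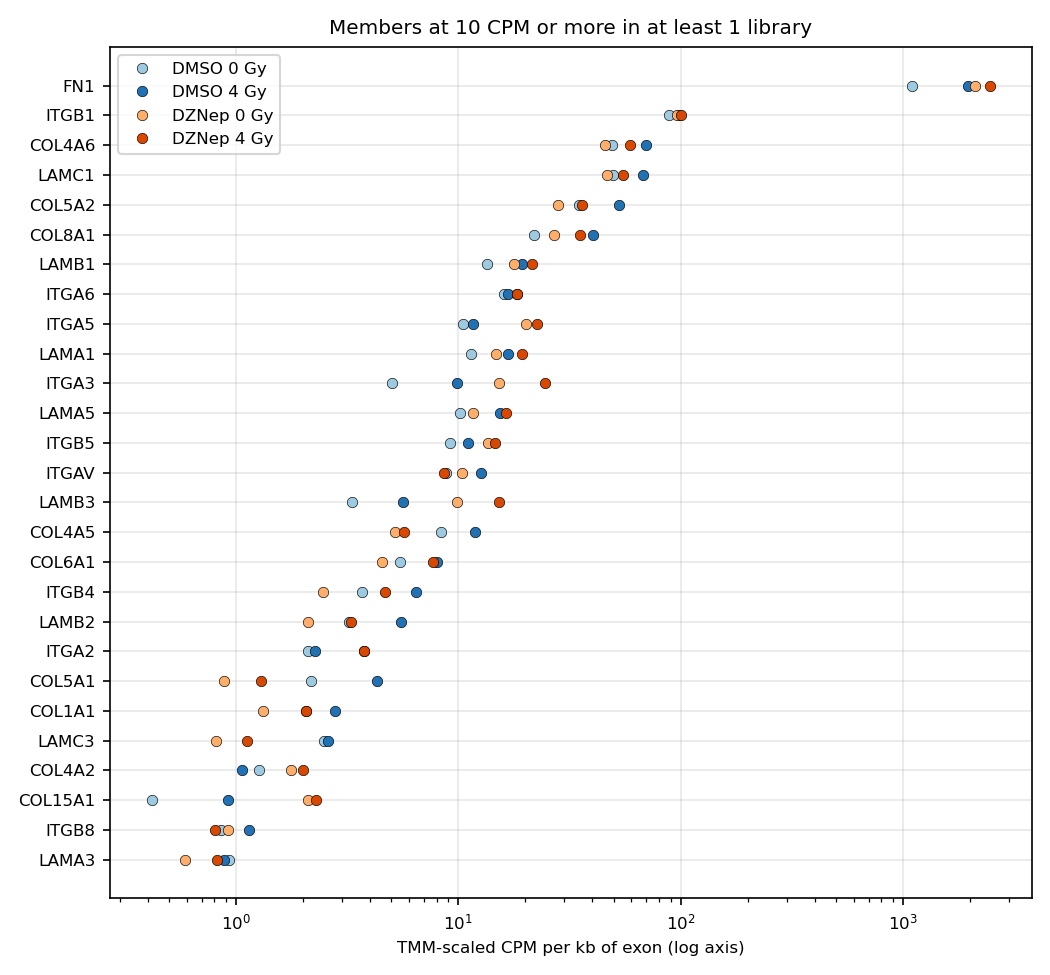
Level of 27 of the 28 members at 10 CPM or more in at least 1 library, as TMM-scaled CPM per kb of exon on a log axis, with 1 point per library. FN1 lies above ITGB1, the next member, in every library.

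**Figure D2:**
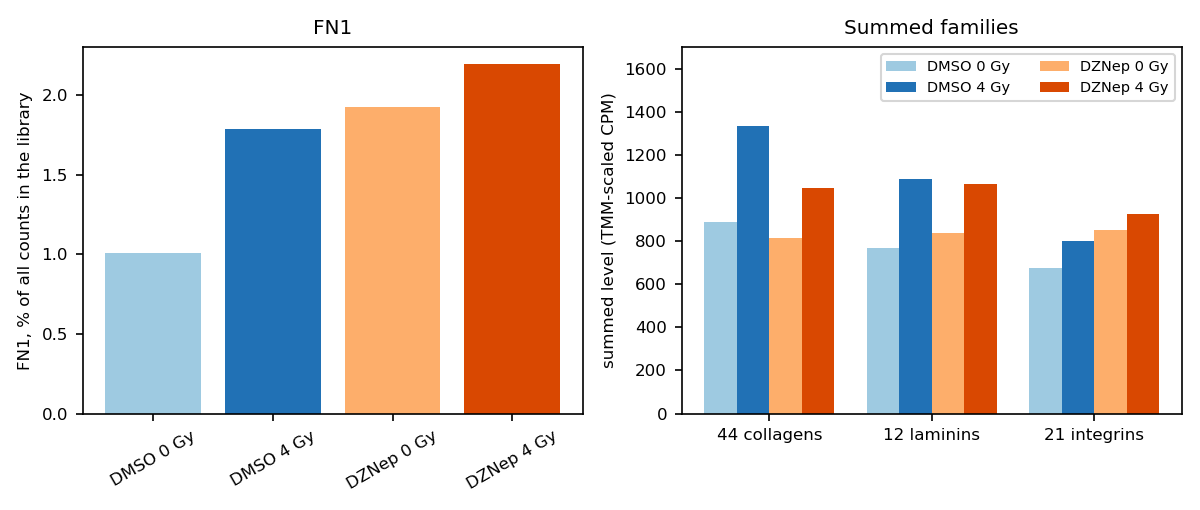
Left, FN1 as a percentage of all counts in each library; right, TMM-scaled CPM summed over the 44 collagens, 12 laminins and 21 integrins, 1 bar per library. FN1 rises from 1.01% in DMSO 0 Gy to 2.19% in DZNep 4 Gy, and the summed collagens are highest in DMSO 4 Gy at 1333 CPM.

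FN1 rose with DZNep. Its level was 9949.8, 17892, 19078 and 22409.8 CPM, so DMSO 0 Gy was the low library and both DZNep libraries lay above both DMSO libraries. The DZNep effect was 0.63 on the log2 scale (SE 0.14, 1.55-fold, adjusted p = 0.00634). The call was lost without dose as a factor (0.58, adjusted p = 0.241). With 1 library left out and drug alone in the model, the effect was 0.19 without DMSO 0 Gy (adjusted p = 0.686), 1.06 without DMSO 4 Gy (adjusted p = 0.0223), 0.70 without DZNep 0 Gy (adjusted p = 0.241) and 0.46 without DZNep 4 Gy (adjusted p = 0.494). The ratio was 0.94 at 0 Gy and 0.32 at 4 Gy. Radiation went with a ratio of 0.85 in DMSO and 0.23 in DZNep, and the radiation effect over both was 0.54 (SE 0.14, adjusted p = 0.0527), short of the threshold. It passed with RLE scaling (adjusted p = 0.0395), with plain library size (adjusted p = 0.0479) and with a 10 CPM filter (adjusted p = 0.00531). It did not pass with DESeq2 (adjusted p = 0.068), with no filter (adjusted p = 0.0884), without drug as a factor (adjusted p = 0.998) or with any library left out (adjusted p from 0.82 to 0.9999). With both treatments FN1 was 1.17 above DMSO 0 Gy on the log2 scale. Bulk RNA does not separate a change in the number of cells that express a gene from a change per cell.

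SPARC was near absence in DMSO, with 6 and 24 counts, and had 177 and 159 counts with DZNep. Its log2 ratio was 4.54 at 0 Gy (interval 3.83 to 6.44) and 2.62 at 4 Gy (interval 2.09 to 3.39), and its effect of 3.62 (SE 0.52, adjusted p = 0.000414) passed the test. THY1, one of the 7 fibroblast markers, moved likewise, with 1 and 16 counts in DMSO and 234 and 155 with DZNep (4.61, SE 0.68, adjusted p = 0.000526). Both SPARC and THY1 passed the filter through the DZNep libraries alone, so a difference was built into their selection. The part of such markers in the SPARC and ITGB2 results was not tested. The other markers of that list did not pass for DZNep or were below the filter, with FAP at 0. Per kb of exon SPARC reached 0.378 CPM in DZNep 4 Gy, where FN1 stood at 2464 CPM per kb.

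With DZNep, 15 of the 47 tested members rose and 8 fell. Over all 13378 genes tested, 10.8% rose and 12.3% fell, against 31.9% and 17.0% of the tested members. Without the 3 members that passed through the DZNep libraries alone, 12 of 44 rose and 8 fell. Among genes at 10 CPM or more in at least 2 libraries, 9 of 26 members rose and 7 fell, against 15.3% of such genes in each direction. The median effect over the 44 was 0.04, beside -0.02 over all genes tested. By family, 7 of 15 integrins rose and 1 fell, and of 20 collagens 3 rose and 5 fell. Of the 7 integrins, ITGA10 and ITGB2 passed the filter through the DZNep libraries alone, which leaves 5 rises. The difference between families was not tested. The counts rest on the model: without dose as a factor 6 and 2 members passed, against 2.65% and 2.74% of all genes. Leaving out a library left too few for both factors, and with drug alone the counts were 4 and 3 without DMSO 0 Gy, 8 and 1 without DMSO 4 Gy, 2 and 0 without DZNep 0 Gy, and 0 and 2 without DZNep 4 Gy. COL5A1, COL15A1, LAMB3 and ITGA3 each lost their call in 2 of these 4 fits and kept their sign in all 4.

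Of 6 fibril-forming collagens tested, COL5A1, COL3A1, COL1A1 and COL5A2 fell with DZNep, and COL2A1 and COL27A1 had effects above 0 that did not pass. The median effect was -0.49. COL5A1, a chain of the type V collagen that starts and limits fibril growth, stood at 18.6, 36.7, 7.55 and 11.0 CPM, and both DZNep libraries lay below both DMSO libraries. It fell by 1.52 (SE 0.19, 2.86-fold, adjusted p = 0.000144). Its partner chain COL5A2 was far more abundant, at 248, 375, 199 and 254 CPM, and fell by 0.44 (SE 0.14, adjusted p = 0.0438); DZNep 4 Gy lay above DMSO 0 Gy, so the groups overlap.

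COL3A1, the chain of type III collagen, stood at 9.002, 6.90, 5.63 and 3.96 CPM and fell by 0.74 (SE 0.22, adjusted p = 0.0301). COL1A1, the main chain of type I collagen, stood at 13.9, 18.8, 8.90 and 13.9 CPM and fell by 0.54 (SE 0.18, adjusted p = 0.0491). DMSO 0 Gy and DZNep 4 Gy were level for COL1A1. The COL1A1 call was lost with RLE scaling (adjusted p = 0.0501), DESeq2 (adjusted p = 0.0734) and no filter on low counts (adjusted p = 0.0819). That of COL5A2 was lost with DESeq2 (adjusted p = 0.0586) and no filter (adjusted p = 0.0758). COL2A1 and COL27A1 did not pass (0.43, SE 0.30, and 0.22, SE 0.31). Of the 5 smooth muscle markers, ACTA2 fell (13.1 and 95.4 CPM in DMSO, 3.85 and 9.57 CPM with DZNep), as did MYH11 (11.7 and 14.8 CPM, then 6.60 and 7.23 CPM). TAGLN, which passed the filter through the DZNep libraries alone, rose from 0.650 and 0.605 CPM to 1.08 and 1.95 CPM. DES stayed under 0.472 CPM and CNN1 had 0 counts. Their part in these results was not tested.

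Of 6 type IV collagen chains, COL4A2 rose with DZNep, COL4A5 fell and 4 did not pass. COL4A2 stood at 16.4, 13.7, 23.0 and 25.8 CPM, higher in both DZNep libraries, and rose by 0.70 (SE 0.18, 1.62-fold, adjusted p = 0.0156). COL4A1, across the 126 bases shown above, stood at 3.91, 3.23, 2.11 and 1.97 CPM, lower in both DZNep libraries, with an effect of -0.80 (SE 0.29, adjusted p = 0.061) that did not pass. The antisense gene COL4A2-AS1 had 342, 229, 470 and 496 counts against 2273, 1544, 2980 and 2940 for COL4A2, and whether counting used strand is not given in the sources used here.

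COL4A5 stood at 65.1, 92.6, 40.5 and 44.4 CPM and fell by 0.87 (SE 0.16, 1.83-fold, adjusted p = 0.00256), with both DZNep libraries below both DMSO libraries. Its neighbour COL4A6 stood at 337, 477, 313 and 407 CPM and did not pass (-0.17, SE 0.14). COL4A3 (-0.89, SE 0.40) and COL4A4 (-0.09, SE 0.25), the third such pair, did not pass either. COL4A3 had log2 ratios of -0.06 at 0 Gy and -1.72 at 4 Gy, so its effect rests on the 4 Gy pair. The differences between neighbours were not tested.

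Other collagens that passed were higher with DZNep. COL15A1, a basement membrane-associated collagen with heparan or chondroitin sulfate chains, stood at 2.30, 5.05, 11.6 and 12.6 CPM. It rose by 1.82 (SE 0.26, 3.52-fold, adjusted p = 0.000402), and the groups did not overlap. COL12A1, which decorates fibrils, stood at 2.83, 4.23, 6.48 and 6.60 CPM and rose by 0.92 (SE 0.25, adjusted p = 0.0207). COL8A1, a network-forming collagen, did not pass (0.06, SE 0.16), with 125, 229, 154 and 202 CPM, nor did COL6A1, a chain of the beaded filaments of type VI, with 23.1, 34.0, 19.3 and 32.7 CPM (-0.16, SE 0.17). COL6A2 (-0.68, SE 0.24), COL7A1 (0.39, SE 0.34), COL18A1 (-0.60, SE 0.27) and COL26A1 (0.32, SE 0.31) did not pass. Of the collagens below the filter, COL13A1, a transmembrane collagen, had 0, 12, 45 and 201 counts. At 0 Gy with DZNep it stood 16.0-fold above a floor of 3 counts set for the library at 0. The interval of its log2 ratio began at 3.65.

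Among laminins, 3 of the 10 tested rose with DZNep and 2 fell, with a median effect of 0.21. LAMB3, a beta chain of the epithelial laminin of hemidesmosomes, stood at 14.9, 25.4, 44.1 and 68.4 CPM, and both DZNep libraries lay above both DMSO libraries. It rose by 1.50 (SE 0.16, 2.82-fold, adjusted p = 5.95e-05). LAMA3, the alpha chain of the same trimer, stood at 10.2, 9.76, 6.48 and 9.04 CPM (-0.39, SE 0.21, adjusted p = 0.212).

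LAMC3 and LAMB2 fell. LAMC3, a gamma chain, stood at 15.3, 15.9, 4.96 and 6.86 CPM and fell by 1.42 (SE 0.20, 2.68-fold, adjusted p = 0.000372), with no overlap. LAMB2 stood at 18.5, 31.8, 12.1 and 19.0 CPM and fell by 0.67 (SE 0.17, adjusted p = 0.0137). DZNep 4 Gy lay just above DMSO 0 Gy for LAMB2. LAMA2, the alpha chain of muscle and nerve laminin, rose by 1.21 (SE 0.32, adjusted p = 0.0175) from 0.939 and 1.66 CPM to 2.72 and 3.08 CPM.

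The chains of the abundant laminins did not pass. LAMC1 stood at 393, 536, 369 and 435 CPM (-0.19, SE 0.14), LAMB1 at 83.7, 120, 111 and 134 CPM (0.28, SE 0.15), LAMA1 at 113, 165, 145 and 191 CPM (0.28, SE 0.15) and LAMA5 at 117, 176, 133 and 187 CPM (0.14, SE 0.15). In each of these, both irradiated libraries lay above both libraries at 0 Gy. The antisense gene LAMA5-AS1 had 1497 to 2471 counts against 16159 to 21259 for LAMA5.

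Of 15 tested integrin subunits, 7 rose with DZNep and 1 fell, and without ITGA10 and ITGB2 the rises were 5. ITGA3, an alpha subunit that binds laminin, stood at 24.5, 48.3, 74.8 and 120 CPM, with no overlap between drug arms. It rose by 1.46 (SE 0.16, 2.75-fold, adjusted p = 6.63e-05). ITGA5, the alpha subunit of the main fibronectin receptor, stood at 46.8, 51.9, 89.2 and 100 CPM and rose by 0.94 (SE 0.15, 1.92-fold, adjusted p = 0.00106). ITGA2, which binds collagen, stood at 16.6, 17.9, 29.6 and 29.5 CPM and rose by 0.78 (SE 0.17, 1.71-fold, adjusted p = 0.0059). For all 3 the DZNep libraries lay above the DMSO libraries at both doses.

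ITGB5, which pairs with ITGAV as a vitronectin receptor, stood at 40.3, 48.4, 59.3 and 64.2 CPM and rose by 0.48 (SE 0.16, adjusted p = 0.042). ITGA7, another laminin-binding alpha subunit, rose by 0.97 (SE 0.32, adjusted p = 0.0438) at 0.824, 1.52, 1.48 and 3.25 CPM. ITGB4, the beta subunit of hemidesmosomes, was the single fall, by 0.52 (SE 0.17, adjusted p = 0.0403), at 22.7, 39.9, 15.2 and 29.1 CPM. Drug arms overlapped for ITGA7 and ITGB4 and not for ITGB5. DESeq2 did not call ITGA7 (adjusted p = 0.105), and without the filter on low counts ITGA7 (adjusted p = 0.0624), ITGB4 (adjusted p = 0.0765) and ITGB5 (adjusted p = 0.0747) were lost.

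ITGB1, the common partner of ITGA2, ITGA3 and ITGA5, stood at 348, 386, 379 and 393 CPM and did not pass (0.07, SE 0.14). ITGA6, which pairs with ITGB4 or ITGB1, stood at 94.0, 97.5, 107 and 107 CPM (0.16, SE 0.15). ITGAV stood at 63.7, 90.9, 74.9 and 62.2 CPM (-0.16, SE 0.19), and ITGB8 at 7.90, 10.6, 8.44 and 7.42 CPM (-0.21, SE 0.22). ITGA1 (-0.45, SE 0.29), ITGA11 (-0.50, SE 0.41) and ITGAE (0.02, SE 0.29) did not pass.

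ITGB2, the beta subunit of leukocyte integrins, had 0 and 51 counts in DMSO and 616 and 369 counts with DZNep. At 0 Gy with DZNep it stood 220-fold above a floor of 3 counts set for the DMSO library at 0. The interval of its log2 ratio there began at 7.48, and at 4 Gy the log2 ratio was 2.79 (interval 2.41 to 3.29). ITGB2 passed the test (adjusted p = 0.00289) but not by DESeq2 (adjusted p = 0.0966). Its antisense gene ITGB2-AS1 had 36, 0, 222 and 184 counts. In DMSO 0 Gy ITGB2 had 0 counts and ITGB2-AS1 36, and in DMSO 4 Gy ITGB2 had 51 and ITGB2-AS1 0. Reads from any stretch that the 2 genes share cannot be told apart unless counting used strand. ITGA10 rose by 1.68 (SE 0.36, adjusted p = 0.00567), at 96, 52, 224 and 220 counts. ITGB2 and ITGA10 passed the filter through the DZNep libraries alone, so a difference was built into their selection. ITGB6, an epithelial partner of ITGAV, was below the filter with 0, 0, 70 and 20 counts. With DZNep it stood 25.0-fold above the same floor at 0 Gy and 6.59-fold at 4 Gy. The intervals of its log2 ratios began at 4.30 and 2.29.

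In the libraries taken pair by pair, the largest ratios recurred at both doses. At 0 Gy, 27 members reached 10 CPM in one of the libraries; 4 of them, among which were COL15A1, ITGA3 and LAMB3, were at least 2-fold higher with DZNep and COL5A1 and LAMC3 at least 2-fold lower. Of all 8143 such genes, 3.61% were higher and 3.61% lower. At 4 Gy, of 27 members at 10 CPM, the same 4 genes were higher, against 3.25% of all genes. COL4A5, COL5A1 and LAMC3 were lower, against 3.91%. Of the 44 tested members that passed the filter in both arms, 38 had ratios of one sign at both doses (86.4%), against 74.1% of all genes tested. With both treatments against neither, 6 of 27 members, among them COL15A1, FN1, ITGA3, ITGA5 and LAMB3, were at least 2-fold higher, against 6.01% of all genes. Only LAMC3 of the 27 was lower, a share near the 4.61% of all genes. That comparison shares its libraries with the others.

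After radiation, 5 of 47 tested members rose and 0 fell, beside 2.17% and 0.897% of all genes tested. The 5 were ITGB4, ITGA3, LAMB3, LAMB2 and COL5A1, and all had passed the filter on low counts in both drug arms. By sign alone, 41 of the 47 effects were above 0 (87.2%), against 50.8% of all genes tested, and the median effect was 0.39 against 0.01. At an unadjusted p under 0.05, 20 members were higher and 0 were lower by edgeR. Over all 13378 genes tested, 2752 were at that p, and 1221 of those were lower. DESeq2 called 8 members higher and 0 lower, beside 3.34% and 1.6% of all genes. All 10 tested laminins, 17 of 20 collagens and 12 of 15 integrins had effects above 0, with medians of 0.48, 0.39 and 0.12.

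ITGB4 rose by 0.87 on the log2 scale (SE 0.17, 1.83-fold, adjusted p = 0.0177), with ratios of 0.81 in DMSO and 0.93 in DZNep. ITGA3 rose by 0.83 (SE 0.16, 1.77-fold, adjusted p = 0.0181), with 0.98 and 0.68. LAMB2 rose by 0.72 (SE 0.17, 1.64-fold, adjusted p = 0.0435), with 0.78 and 0.65, and LAMB3 by 0.70 (SE 0.16, 1.63-fold, adjusted p = 0.0377), with 0.77 and 0.63. COL5A1 rose by 0.77 (SE 0.18, 1.70-fold, adjusted p = 0.0443), with 0.98 in DMSO and 0.55 in DZNep. ITGA3 and LAMB3 thus passed upward in both effects, while COL5A1, LAMB2 and ITGB4 passed downward with DZNep and upward with radiation.

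Several abundant members lay close to the threshold. COL8A1 had an effect of 0.63 (SE 0.16, adjusted p = 0.0517), COL6A1 of 0.66 (SE 0.17, adjusted p = 0.0523) and LAMA5 of 0.54 (SE 0.15, adjusted p = 0.0641), and DESeq2 called all 3 (adjusted p = 0.0187, 0.0201 and 0.0294). A 10 CPM filter, which left 26 members, called 12 of them, against 7.38% of all genes in that fit, adding FN1, COL4A6, COL5A2 and LAMA1 to the genes above. Without a filter only ITGB4 was called. Without drug as a factor edgeR called 0 members, with 4 at an unadjusted p under 0.05, and with 1 library left out in turn it called 0 with 0 to 7 at that p. COL3A1 had ratios below 0 in both arms, -0.38 in DMSO and -0.50 in DZNep; its effect of -0.44 (SE 0.22, adjusted p = 0.277) did not pass. ACTA2 also rose with radiation (2.11, SE 0.29, adjusted p = 0.00292), and its part in the collagen values was not tested.

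In ratios, of 26 members at 10 CPM or more in either DMSO library, 0 were 2-fold higher or lower (2.06% and 1% of all genes), nor were any of 25 in DZNep (0.901% and 0.2%). COL15A1, below 10 CPM in both DMSO libraries, had a ratio of 1.13 in DMSO. Over the 28 members at 10 CPM or more in some library, 23 had ratios above 0 in both arms (82.1%), against 34.8% of 8506 such genes. The median ratio of the 28 was 0.52 in DMSO and 0.31 in DZNep, beside -0.02 and 0.03 over all such genes.

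The radiation ratio was larger in DMSO than in DZNep for 21 of the 28 members (75%), against 48.0% of all genes at that level. The median difference was -0.14, against 0.02. FN1 (0.85 and 0.23), COL15A1 (1.13 and 0.12) and COL8A1 (0.87 and 0.39) were among these. ITGAV had a ratio of 0.51 in DMSO (interval 0.47 to 0.55) and -0.27 in DZNep (interval -0.31 to -0.22), and ITGB8 had 0.42 and -0.19. Both DZNep ratios fell short of the size of 0.3 set for pointing out opposite signs, so they are given outside that rule. DMSO 4 Gy was the highest of the 4 libraries for ITGAV and for ITGB8. With 1 library per group a difference of this kind has no error estimate and was not tested.

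**Figure D3:**
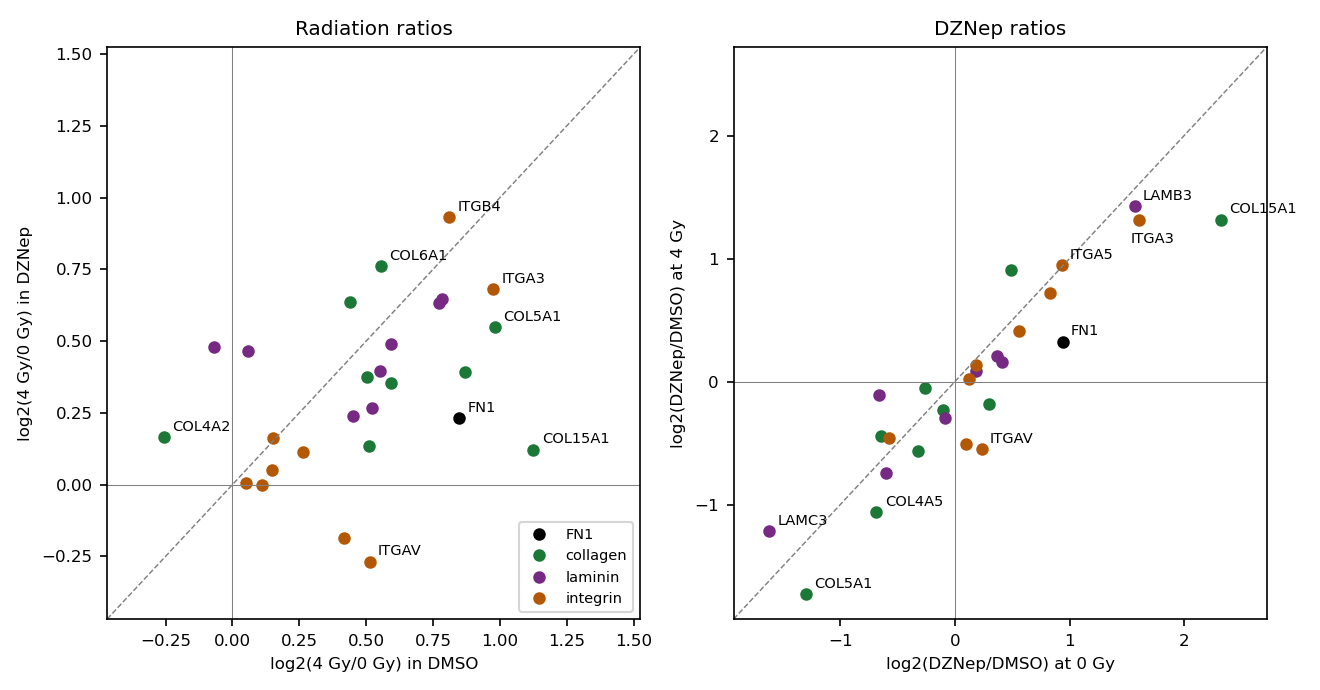
Log2 ratios of 27 of the 28 members at 10 CPM or more in at least 1 library: left, 4 Gy over 0 Gy in DMSO (x) and in DZNep (y); right, DZNep over DMSO at 0 Gy (x) and at 4 Gy (y); the dashed line marks equal ratios. On the left most members lie above 0 on both axes and below the line; on the right the members spread along the line from COL5A1 and LAMC3 to LAMB3, ITGA3 and COL15A1.

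Genes that modify or accompany these proteins were counted from lists chosen for their function. Medians over each list are of log2 effects and stand beside -0.02 for DZNep and 0.01 for radiation over all genes tested. Of 24 tested genes of collagen processing and cross-linking, 2 rose and 3 fell with DZNep (8.33% and 12.5%, near the shares over all genes), with a median of 0.02. LOXL1, a cross-linking oxidase, fell by 1.71 (SE 0.22) and LOXL3, another, rose by 1.09 (SE 0.18). CRTAP and P4HA1, which serve proline hydroxylation in the endoplasmic reticulum, fell by 0.97 (SE 0.15) and 0.77 (SE 0.16). After radiation FKBP10, a collagen chaperone, rose by 0.62 (SE 0.15) and the others did not pass. The median radiation effect was 0.15.

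Of 28 other matrix glycoproteins, 11 rose and 3 fell with DZNep (39.3% and 10.7%), with a median of 0.13. THBS1, thrombospondin, stood at 2.39, 4.74, 23.1 and 31.4 CPM and rose by 2.99 (SE 0.21), FMOD by 2.19 (SE 0.34) and VTN, vitronectin, by 1.86 (SE 0.26). NID1, which bridges laminin and type IV collagen, fell by 1.71 (SE 0.41). FMOD passed the filter through the DZNep libraries alone and NID1 through the DMSO libraries alone. After radiation 7 rose and 1 fell (25% and 3.57%), with a median of 0.58: BGN rose by 1.10 (SE 0.23), MFGE8, an integrin ligand, by 0.92 (SE 0.15) and SMOC1 by 0.91 (SE 0.16), and POSTN fell by 1.47 (SE 0.35).

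Of 34 focal adhesion genes, 12 rose and 2 fell with DZNep (35.3% and 5.88%), with a median of 0.31. The tensins, which bind integrin tails, went both ways. TNS4 rose by 3.93 (SE 0.27) and TNS2 fell by 1.64 (SE 0.15). TNS1, which passed the filter through DZNep libraries alone, rose by 2.89 (SE 0.62). PARVB, a parvin of the integrin-linked kinase complex, fell by 1.74 (SE 0.19), and after radiation ITGB1BP1 fell by 0.75 (SE 0.18). Of 15 other matrix receptors, 5 rose and 1 fell with DZNep (33.3% and 6.67%), with a median of 0.35: SDC2 rose by 1.12 (SE 0.31), SDC4 by 1.08 (SE 0.19) and DAG1, the laminin receptor dystroglycan, by 0.96 (SE 0.13), while HMMR fell by 0.99 (SE 0.17). None of the 15 passed for radiation by edgeR, with 6 at an unadjusted p under 0.05.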

How the data were processed

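Per the labels' protocols, RNA was made into libraries by a Lexogen SENSE mRNA kit. The authors deposited a raw count for each symbol. The submitters' processing notes name TopHat, edgeR and hg19. Their versions, the counting program and any use of strand: not given in the sources used here. Each group is 1 library.

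Counts were scaled by TMM (factors 0.979 to 1.01) in edgeR 4.0.16 (R 4.3.3). Genes at 1 CPM in at least 2 libraries (13378) were tested with the quasi-likelihood test, with drug and dose as additive factors and a Benjamini-Hochberg adjusted p of 0.05 as threshold. The model has 1 residual and 11.5 prior degrees of freedom. SE is the log2 fold change over the square root of F. Pair ratios used a prior count of 2 and exact conditional binomial 95% intervals. Exon length per gene came from GENCODE 29 (79 of 79 members matched). The test was tried on simulated data with a common spread for all genes and no departure from additive effects. These data differ in both, so that trial does not show how the test behaves on them.

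Members at 10 CPM or more in a library, or past the threshold, are named with all their values, other members by name, and from each list the up to 4 largest calls per effect. Values of COL13A1, ITGB6, COL1A2, COL4A1 and COL4A3 were chosen after they were seen. The values of 1 member are not reported here, in text or figures; it is in the counts, sums and medians. Members and lists were chosen with earlier results of these data known. Alternatives were DESeq2 1.42.0, RLE or plain library size scaling, other filters, priors and levels, models without the other factor, and leaving out each library.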

Additional observations from a re-analysis of the deposited data

How the results depend on the processing

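With DZNep, the count of members called higher was 15 and fell to 9 under a 10 CPM filter, which tests fewer members. Without dose as a factor 6 were called higher and 2 lower, in place of 15 and 8, against 2.65% and 2.74% of all genes. Leaving out 1 library, with drug alone in the model, gave 0 to 8 higher and 0 to 3 lower. After radiation, the 5 members called higher became 8 with DESeq2 (3.34% of all genes), 8 with RLE scaling (3.04%) and 8 with plain library size (2.72%). The count was 12 with a 10 CPM filter (7.38%) and 1 with no filter (0.606%). Without drug as a factor it was 0, as over all genes. No call held with any library left out. With 1 library left out and drug dropped, the radiation effect ranged from -0.25 to 1.66 for COL5A1, from -0.044 to 1.78 for ITGA3 and from -0.22 to 1.66 for LAMB3, since doses then differ in drug by construction; COL5A1 was below 0 without DMSO 4 Gy, and ITGA3 and LAMB3 without DZNep 4 Gy. With a 1 CPM minimum in place of 10, the members at least 2-fold higher with DZNep became 9 at 0 Gy. At 4 Gy, 9 were higher and 6 lower. With radiation 2 were higher in DMSO and 3 in DZNep. For both treatments against neither, 14 were higher and 2 lower. The shares of all genes at that minimum were not counted. The counts with DZNep take in SPARC, ITGA10 and ITGB2, which reached 1 CPM in the DZNep libraries alone. RLE scaling gave 1 member 2-fold higher with radiation in DMSO, in place of 0. Of 401 values of single members under settings with all libraries, 351 kept their call, 34 lost it, 16 gained it and 0 called values changed sign; 3 uncalled ones did. Of 268 with a library left out, 182 kept it, 83 lost it and 3 reversed, and 40 uncalled ones changed sign. The cause of the other changes was not tested. No paired analysis was possible because each group is 1 library and the labels give no replicate numbers. Depth limits members near a count of 0, which allows up to 3 counts, or 0.0217 to 0.0267 CPM by library. Members that did not reach 1 CPM in at least 2 libraries were not tested.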
